A study of Mus musculus with 8 samples.

Results

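The 34 genes described here encode the enzymes and transporters of glycolysis, the sensors and factors of the hypoxia response, and several of its known targets. They were chosen by symbol, and all 34 were found among the 21883 protein-coding genes of the mouse gene table used. Histone H4 acetylation, a mark of active promoters and enhancers, had been mapped by chromatin immunoprecipitation and sequencing in bone-marrow-derived macrophages (BMDM), which are grown in culture from marrow cells, here of C57BL/6 mice. The 4 groups were cells given 25HC and then PAM3, cells given PAM3 alone, cells given 25HC alone, and untreated cells. 25HC is 25-hydroxycholesterol, an oxysterol that macrophages themselves produce from cholesterol. PAM3 is PAM3CSK4, a synthetic lipopeptide that Toll-like receptors recognise. Each group held 2 libraries, 1 from mouse A and 1 from mouse B, and the labels give these same 2 mouse letters in all groups, read here as the same animals. The label for stimulation time carries no unit and reads 18 in the libraries with PAM3 and 0 in those without, so PAM3 and that time cannot be told apart. Neither dose, nor how long 25HC was given, is stated in the sources used here.

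Glycolysis splits glucose into pyruvate, and cells that run it fast export much of that pyruvate as lactate. Its genes are classical targets of the hypoxia-inducible factors, whose α subunits are encoded by Hif1a and Epas1. Prolyl hydroxylases of the Egln family mark those subunits for degradation when oxygen is present. Macrophages activated through Toll-like receptors are known to stabilise the Hif1a product and to turn towards glycolysis even in air.

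Called length, in bp, is how much of a gene body and the 5 kb on either side lay under a library's deposited broad peaks. It counts how far the mark extends, not how high it stands. A gene is said to have risen or fallen where limma's Benjamini-Hochberg adjusted p, over all 14586 genes with a mean of at least 500 bp, was under 0.05. All 34 genes passed that filter. A log2 change compares log2(called bp + 500) after centring every library on its median, which makes changes of short values look smaller than they are. Paired values are those of mouse A and then mouse B. With 2 libraries a group, an SD rests on 2 values.

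Each list held between 48446 and 54552 peaks (median length 1028 to 1227 bp). Without read counts in the lists, depth is unknown. They covered 56.6 Mb at the least and 72.4 Mb at the most, and both extremes were PAM3 libraries, of mouse A and mouse B. Peak positions repeated between the 2 libraries of a group, with a Spearman correlation of length of 0.914 to 0.921 over 32820 to 36589 matched peaks. The authors' fold enrichment of the same peaks correlated by only 0.106 to 0.21, so the height values are left out of the main measure. They enter only alternative settings, which drop peaks by −log10 q, hold all libraries to the same covered length, or weight length by fold enrichment. A call gained or lost in those settings rests on values that hardly repeated between libraries. A mean of at least 500 bp was found for all 10 macrophage markers, 4 of 8 neutrophil markers, 6 of 8 lymphocyte markers and all 6 dendritic cell markers. The neutrophil genes S100a9, Ly6g and Ngp and the T cell genes Cd3e and Cd8a had no peak in any library. In the PAM3 average 3 macrophage markers rose, 1 neutrophil marker rose (by a log2 of 2.21) and 1 fell, 1 lymphocyte marker fell, and 1 dendritic cell marker rose while 2 fell and 3 did not pass. Summed called length was 7652 to 8351 bp with 25HC then PAM3, 6308 to 7666 bp with PAM3, 7670 to 8761 bp with 25HC and 8746 to 8811 bp in untreated cells for the neutrophil markers. For the lymphocyte markers it was 9536 to 11303 bp with 25HC then PAM3, 11261 to 13581 bp with PAM3, 13820 to 15803 bp with 25HC and 12728 to 14773 bp in untreated cells. The dendritic cell markers' summed called length was 18747 to 23920 bp with 25HC then PAM3, 19163 to 22290 bp with PAM3, 24104 to 29489 bp with 25HC and 29208 to 30925 bp in untreated cells. The part of a changed mix of cells in the results below was not tested, and in such bulk samples fewer cells of a type and less acetylation per cell cannot be told apart.

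PAM3 against untreated cells shows how acetylation over these genes changed with the lipopeptide, and the contrast of 25HC then PAM3 with 25HC alone does so in cells that had the oxysterol beforehand. Acetylation rose with PAM3 over Hif1a in both settings, although the call in cells without 25HC ended once the mouse was a block (adjusted p = 0.0652). Averaged over 25HC, with 4 libraries against 4, it fell over Epas1, the other hypoxia-inducible factor, and rose over Pfkfb3, which makes the allosteric activator of phosphofructokinase, a call that the block also ended (adjusted p = 0.0821). No gene of the glycolytic pathway proper, from glucose uptake to lactate export, passed the test in any of the 7 contrasts of the main fit.

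In PAM3 against untreated cells 1 of 34 genes rose and none fell, where 3.85% of all genes tested were called, 1.89% rising and 1.97% falling. In 25HC then PAM3 against 25HC 1 of 34 rose and none fell, beside 5.03% of all genes called, 2.73% rising and 2.3% falling. In the PAM3 average 2 of 34 rose and 1 fell, beside 11.8% of all genes called, 5.94% rising and 5.88% falling. No gene of the 34 was called for 25HC against untreated cells (background 0.0343%), for 25HC then PAM3 against PAM3 (1.3%) or for the average effect of 25HC (0.0686%). Unadjusted, 3, 11 and 11 of the 34 had p under 0.05 in the first 3 of these contrasts, and 2, 2 and 3 in the last 3. These are 8.82%, 32.4% and 32.4% of the members, where 19.1%, 21.4% and 26.9% of all genes tested had such a p, and then 5.88%, 5.88% and 8.82%, where 4.65%, 14.9% and 11.4% of all genes had one. The median log2 change of the 34 genes was 0.01 in PAM3 against untreated cells, 0.12 in 25HC then PAM3 against 25HC and 0.10 in the PAM3 average, and that of all genes tested was −0.01, −0.02 and −0.01. The 2 PAM3 responses share no libraries, while the average is made of both.

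**Figure D1:**
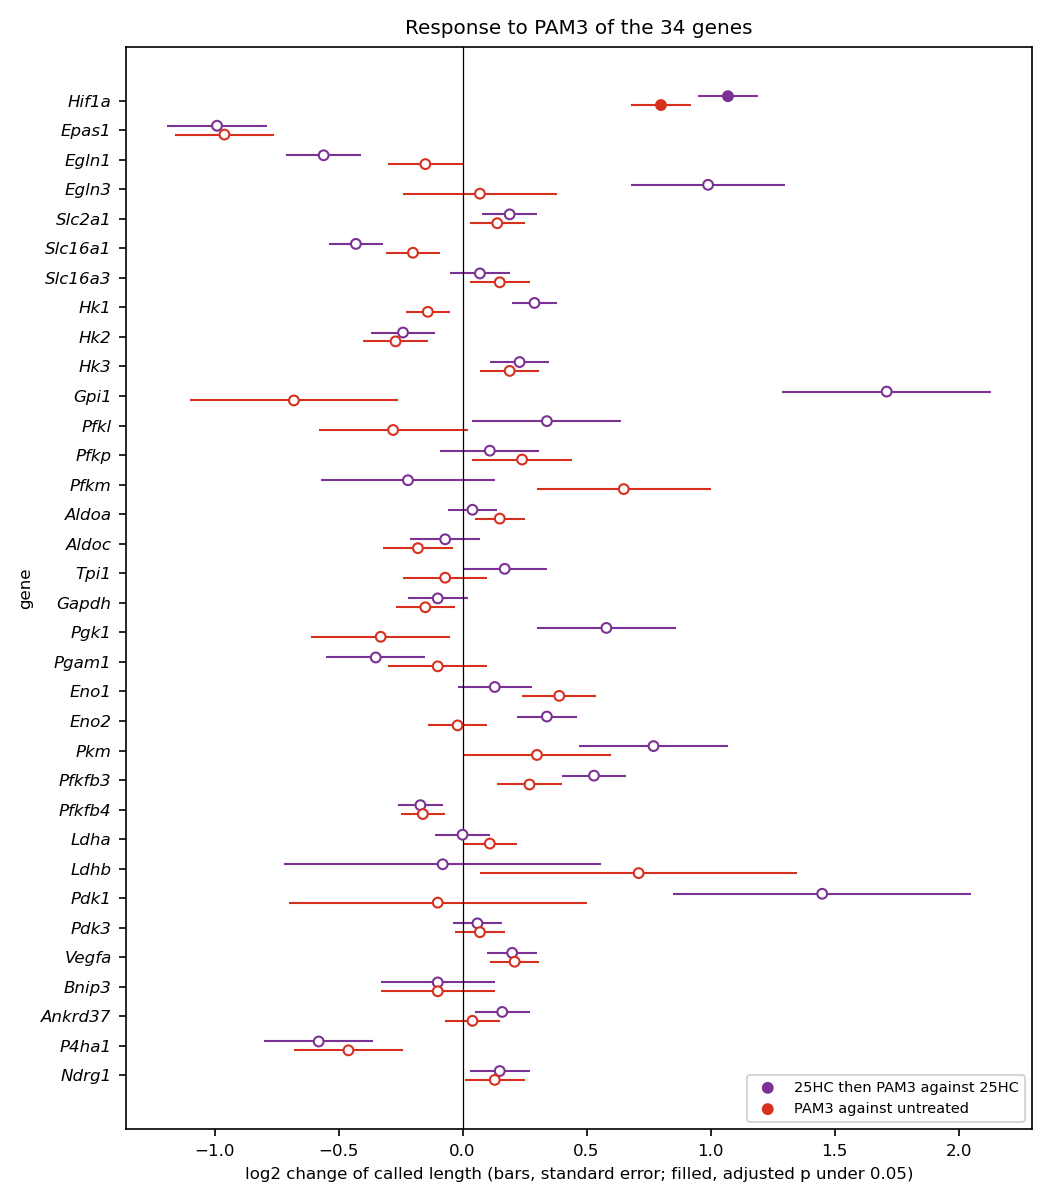
Log2 change of called length with PAM3 for each of the 34 genes (x axis) in rows ordered by role, with 25HC then PAM3 against 25HC in purple and PAM3 against untreated in red, bars giving the standard error and filled points an adjusted p under 0.05. Hif1a carries the only filled points, at 1.07 and 0.80, Epas1 lies at −0.99 and −0.96, and Gpi1 lies on opposite sides of 0 at 1.71 and −0.68.

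Hif1a encodes HIF-1α, the subunit that drives most glycolytic targets of the hypoxia response. The gene lies on chromosome 12, 73901324 to 73947554 (GRCm38.p6), and no other gene's window overlaps it. Its called length was 6602 and 7365 bp with 25HC then PAM3, 6089 and 6180 bp with PAM3, 2762 and 3275 bp with 25HC, and 3497 and 3351 bp in untreated cells. All 4 libraries with PAM3 stood above all 4 without, and the lowest with PAM3, 6089 bp, exceeded the highest without, 3497 bp. The means were 6134 ± 64.3 bp with PAM3 and 3424 ± 103 bp in untreated cells (SD, n = 2 each), a log2 change of 0.80 ± 0.12 (SE; adjusted p = 0.0291). After 25HC they were 6984 ± 540 bp with PAM3 and 3018 ± 363 bp without (SD, n = 2 each), a log2 change of 1.07 ± 0.12 (SE; adjusted p = 0.0131). The difference between the 2 responses, 0.26 ± 0.16 (SE), did not pass (adjusted p = 0.694). Over 4 libraries against 4 the change was 0.94 ± 0.08 (SE; adjusted p = 0.00428). With the mouse as a block the adjusted p was 0.0652 for PAM3 against untreated cells, which ends that call, 0.0395 after 25HC and 0.016 for the average. The first call also ended without any 1 of the untreated, 25HC or 25HC then PAM3 libraries (adjusted p 0.0554 to 0.107), and the second without either 25HC library (0.0564 and 0.0606), while the average held in all 8 such fits (0.0079 to 0.0192). The direction for PAM3 against untreated cells turned to −0.72 in windows of 2 kb around the gene ends, which leave out the start site and most of the gene, and to −0.71 when peaks below a −log10 q of 5 were dropped. In those settings the change after 25HC was 1.17 and 0.91 and the average 0.22 and 0.10, none of which passed.

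The added length at Hif1a lay away from the start site. A region over the start, 5.4 to 7.6 kb from the gene's left end, was called in all 8 libraries, with 1724 and 1998 bp with 25HC then PAM3, 1557 and 2097 bp with PAM3, 2005 and 1978 bp with 25HC, and 2046 and 2045 bp in untreated cells. A region inside the gene, 31.8 to 34.4 kb from its left end, was called in all 4 libraries with PAM3 and in none without. It measured 1138 and 1003 bp with 25HC then PAM3 and 1420 and 1648 bp with PAM3 alone. The same held for a region 6.1 to 4.7 kb to the left of the gene, most of it just outside the window that called length counts. A further 2 regions differed between the groups with PAM3. The first, at −3.0 to −1.7 kb, had 1218 and 1288 bp with 25HC then PAM3 and no peak in any other library, and the second, at 42.9 to 44.3 kb, had 1063 and 492 bp with PAM3 alone and no peak in any other library. At the left end itself, from −0.5 to 1.0 kb, the 25HC then PAM3 libraries had 1415 and 1417 bp, the PAM3 libraries 250 and 276 bp, the 25HC libraries 250 and 824 bp and the untreated libraries 909 and 865 bp. The gene table gives no exons, so whether a region is exonic or intronic was not determined.

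**Figure D2:**
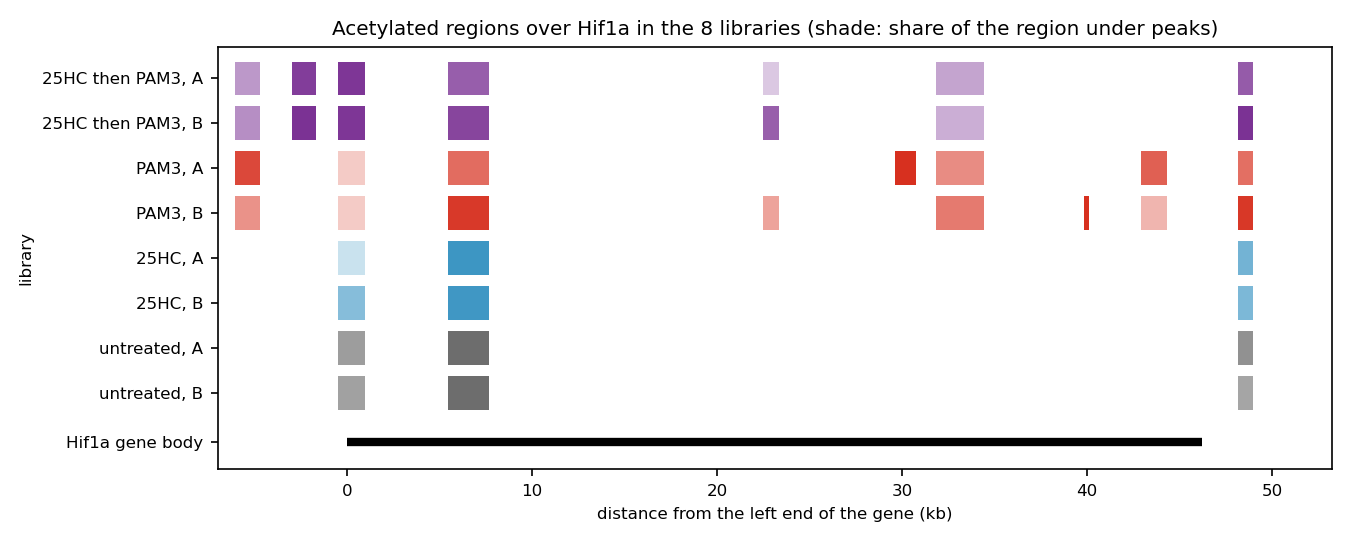
Regions called over Hif1a in each of the 8 libraries (rows, libraries with PAM3 on top), by distance in kb from the left end of the gene, with a darker shade where peaks covered more of the region and the gene body as a black bar. The block at 31.8 to 34.4 kb appears in the 4 libraries with PAM3, and the block over the start site at 5.4 to 7.6 kb appears in all 8.

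The promoter of Hif1a is shown first among those below because its start was under a peak in every library. Each sequence runs from 250 bases before to 50 bases after the first start site listed for the gene, 5′ to 3′ on the gene's strand, from RefSeq on GRCm38.p6. Capitals mark the core of the hypoxia response element, ACGTG or GCGTG on either strand, and CACGTG, which is also an E-box bound by other factors, holds a match on both strands. Pfkfb3 is shown because it rose, Ldha because it holds the most matches among the 32 genes with a promoter in the table, Slc16a1 because its called length was lower in all 4 libraries with PAM3, and Egln3 because its start lost its call in both 25HC libraries. Hif1a lies at chr12:73907617-73907916 (plus strand), Pfkfb3 at chr2:11553880-11554179 (minus), Ldha at chr7:46845554-46845853 (plus), Slc16a1 at chr3:104638414-104638713 (plus) and Egln3 at chr12:54203825-54204124 (minus).
Hif1a: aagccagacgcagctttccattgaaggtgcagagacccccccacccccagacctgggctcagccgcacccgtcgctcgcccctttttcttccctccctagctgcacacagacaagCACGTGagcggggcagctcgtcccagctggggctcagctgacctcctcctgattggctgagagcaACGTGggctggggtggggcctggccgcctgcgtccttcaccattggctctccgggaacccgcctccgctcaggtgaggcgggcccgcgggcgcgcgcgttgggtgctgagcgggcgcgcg
Pfkfb3: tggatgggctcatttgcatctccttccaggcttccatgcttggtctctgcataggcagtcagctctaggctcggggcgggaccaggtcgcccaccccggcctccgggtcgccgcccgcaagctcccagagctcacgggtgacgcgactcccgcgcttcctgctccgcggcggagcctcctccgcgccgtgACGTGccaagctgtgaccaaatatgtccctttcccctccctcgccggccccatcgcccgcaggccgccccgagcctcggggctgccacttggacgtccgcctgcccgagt
Ldha: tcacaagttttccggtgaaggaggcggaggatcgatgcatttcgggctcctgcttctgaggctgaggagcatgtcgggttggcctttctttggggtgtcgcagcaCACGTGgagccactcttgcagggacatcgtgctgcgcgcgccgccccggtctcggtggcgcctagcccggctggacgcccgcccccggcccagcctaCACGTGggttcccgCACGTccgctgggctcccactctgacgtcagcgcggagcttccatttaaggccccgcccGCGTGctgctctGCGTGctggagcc
Slc16a1: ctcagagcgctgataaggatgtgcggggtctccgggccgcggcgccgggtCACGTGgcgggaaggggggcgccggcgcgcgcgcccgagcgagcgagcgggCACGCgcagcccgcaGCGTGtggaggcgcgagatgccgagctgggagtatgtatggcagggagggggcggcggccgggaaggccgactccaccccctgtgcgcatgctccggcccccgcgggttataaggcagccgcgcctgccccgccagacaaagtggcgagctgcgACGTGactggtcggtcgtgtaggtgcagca
Egln3: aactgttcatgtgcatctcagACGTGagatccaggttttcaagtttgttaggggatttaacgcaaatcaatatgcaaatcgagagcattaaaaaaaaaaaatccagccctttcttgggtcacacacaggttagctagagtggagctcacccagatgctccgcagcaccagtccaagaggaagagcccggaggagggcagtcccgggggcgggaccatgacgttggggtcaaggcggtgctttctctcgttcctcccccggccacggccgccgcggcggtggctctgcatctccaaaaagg

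These windows held 3 matches at Hif1a, 1 at Pfkfb3, 7 at Ldha, 5 at Slc16a1 and 1 at Egln3. Of the 32 genes with a promoter in the table, 25 (78.1%) held at least 1 match and 19 (59.4%) held 2 or more. Among the 11702 genes tested that have one, 59.8% held at least 1 and 32% held 2 or more, and among all 17491 protein-coding promoters 49.2% held at least 1. A match is a string of letters and shows no binding, and the genes are known targets of these factors, so no test was made. A start counted as called with 150 or more of its 300 bases under peaks. This was so in all 8 libraries for 23 of the 32 genes (71.9%), against 57% of the genes tested with a promoter, and in no library for Hk1 and Pfkm at the first listed start. No match was found at Eno2, Tpi1, Gpi1, Aldoa, Pkm, Hk1 and Vegfa.

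Epas1 encodes HIF-2α and lies on chromosome 17, 86753864 to 86833410, with no overlapping window. Its called length was 1356 and 1232 bp with 25HC then PAM3, 1966 and 1840 bp with PAM3, 2418 and 3685 bp with 25HC, and 4717 and 3964 bp in untreated cells. All 4 libraries with PAM3 lay below all 4 without, and the groups followed the order just given from shortest to longest without overlap. Across 4 libraries against 4, the log2 change was −0.97 ± 0.14 (SE; adjusted p = 0.0144, or 0.0329 once the mouse entered as a block), a call that held without any 1 library. It ended in windows of 2 kb around the gene ends, where the change was −0.25 (adjusted p = 0.15), and when peaks below a −log10 q of 5 were dropped (−0.51, adjusted p = 0.666). It also ended when all libraries were held to 1 covered length (adjusted p = 0.0655) and with length weighted by fold enrichment (−0.67, adjusted p = 0.16). Within the settings the change was −0.96 for PAM3 against untreated cells and −0.99 after 25HC, and neither passed (adjusted p = 0.0647 and 0.0531). 25HC on average came with a log2 difference of −0.42 that did not pass (adjusted p = 0.347). Every library had a peak at the gene's left end. Inside the gene, a region 43.8 to 44.9 kb from that end was called with 770 and 859 bp in 25HC cells and 1034 and 840 bp in untreated cells, and in no library with PAM3. With 25HC then PAM3 the left-end peak was all that remained called.

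The prolyl hydroxylase genes Egln1 and Egln3 encode oxygen sensors that act on both factors. Egln1 measured 3557 and 4806 bp with 25HC then PAM3, 4825 and 6010 bp with PAM3, 6386 and 6084 bp with 25HC, and 6891 and 5654 bp in untreated cells. The PAM3 average was −0.36 (adjusted p = 0.0904), and 25HC then PAM3 against PAM3 gave −0.35 (adjusted p = 0.356). Egln3, itself a HIF target that feeds back on the pathway, measured 3099 and 5576 bp with 25HC then PAM3, 2652 and 3148 bp with PAM3, 2387 and 1362 bp with 25HC, and 3192 and 2508 bp in untreated cells. After 25HC the PAM3 groups did not overlap, yet the log2 change of 0.99 carried a standard error of 0.31 and did not pass (adjusted p = 0.136). The region over the Egln3 start was 1480 and 2058 bp with 25HC then PAM3, 813 and 801 bp with PAM3, 930 and 0 bp with 25HC, and 1384 and 1431 bp in untreated cells. By the 150-base rule the start was uncalled in both 25HC libraries, since the peak of mouse A covered too little of it.

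**Figure D3:**
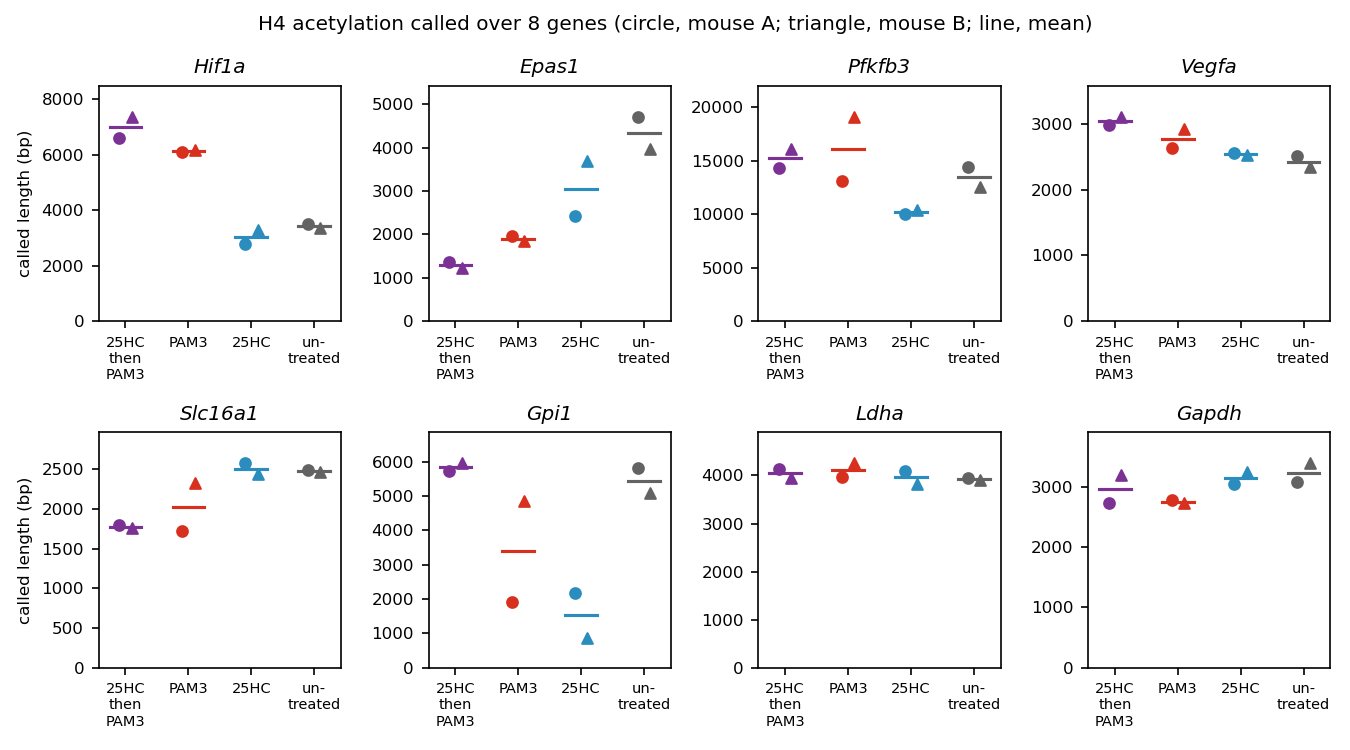
Called length in bp (y axis, from 0, a scale for each gene) in the 4 groups for 8 of the genes, with mouse A as circles, mouse B as triangles and the mean as a line. Hif1a stands high and Epas1 low in both groups with PAM3, Gpi1 is shortest with 25HC, and Ldha stays between 3832 and 4256 bp in every library.

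The transporters bring glucose in and carry lactate out. Slc2a1 encodes the glucose transporter GLUT1 and measured 7286 and 8691 bp with 25HC then PAM3, 7156 and 7823 bp with PAM3, 6912 and 6625 bp with 25HC, and 7298 and 6637 bp in untreated cells. The PAM3 libraries overlapped with the untreated ones. Of its 7 regions 4 were called in all 8 libraries, among them the start and a broad block 15.6 to 19.9 kb downstream of it. Slc16a1 encodes the lactate carrier MCT1. It measured 1792 and 1755 bp with 25HC then PAM3, 1724 and 2332 bp with PAM3, 2576 and 2438 bp with 25HC, and 2496 and 2469 bp in untreated cells. All 4 libraries with PAM3 were below all 4 without, with an average log2 change of −0.31 (standard error 0.08) that just missed the threshold (adjusted p = 0.0526). Slc16a3, which encodes the lactate exporter MCT4, measured 4435 and 4509 bp with 25HC then PAM3, 4348 and 4470 bp with PAM3, 3785 and 4576 bp with 25HC, and 4067 and 4096 bp in untreated cells. Both PAM3 libraries were above both untreated ones, by a log2 of 0.15 that did not pass (adjusted p = 0.565), and after 25HC the groups overlapped.

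Among all 34 genes, 2 had every library with PAM3 above every library without, Hif1a and Vegfa, where 7.12% of all genes tested did so. Another 2 had every library with PAM3 below, Epas1 and Slc16a1, where 9.66% did. Slc16a1 is named here because its values were seen. Both shares of the 34 are close to the background or below it.

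The 16 genes of glycolytic enzymes gave no call in any contrast. In PAM3 against untreated cells 6 were higher and 10 lower, with a median of −0.09 and a range of −0.68 to 0.65, and after 25HC 11 were higher and 5 lower, with a median of 0.15 and a range of −0.35 to 1.71. Hexokinases trap glucose in the cell. Hk1, the housekeeping form, measured 11172 and 12655 bp with 25HC then PAM3, 9109 and 9951 bp with PAM3, 9216 and 9665 bp with 25HC, and 11191 and 10634 bp in untreated cells. It was longer with 25HC then PAM3 than with PAM3 alone in both mice, by a log2 of 0.30 that did not pass (adjusted p = 0.209), and its interaction of 0.43 did not pass either (adjusted p = 0.351). A region of Hk1 54.5 to 55.8 kb from the left end was called with 1206 and 1341 bp with 25HC then PAM3 and in no other library. Hk2, the inducible form and a HIF target, measured 7658 and 6955 bp with 25HC then PAM3, 7019 and 9343 bp with PAM3, 8342 and 8820 bp with 25HC, and 11068 and 9454 bp in untreated cells. In both settings the 2 libraries with PAM3 were below the 2 without, and the average of −0.26 did not pass (adjusted p = 0.139). A region 26.8 to 28.0 kb downstream of its start was uncalled in both PAM3 libraries and in 25HC then PAM3 mouse B, and called in the 5 others.

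Gpi1, the isomerase of the second step, had the widest ratio of highest to lowest library among the genes with no library at 0. It lies on chromosome 7, 34201327 to 34230336, and measured 5718 and 5954 bp with 25HC then PAM3, 1913 and 4861 bp with PAM3, 2182 and 855 bp with 25HC, and 5804 and 5092 bp in untreated cells. Both 25HC libraries were below both untreated ones, and both 25HC then PAM3 libraries were above both 25HC ones. The log2 change was −1.58 for 25HC against untreated cells (adjusted p = 0.772) and 1.71 for 25HC then PAM3 against 25HC (adjusted p = 0.0852). That PAM3 response after 25HC passed over the gene body alone (2.49, adjusted p = 0.0188), in windows of 2 kb around the gene ends (1.05, adjusted p = 0.0421) and with length weighted by fold enrichment (2.71, adjusted p = 0.0444). The interaction was 2.38 ± 0.60 (SE) and the smallest of the 34 by p, and it did not pass (adjusted p = 0.285). No gene of the 14586 passed that test, although 1436 had an unadjusted p under 0.05. The region over the Gpi1 start measured 526 and 550 bp with 25HC then PAM3, 1028 and 1085 bp with PAM3 and 723 and 683 bp in untreated cells. It was absent with 25HC alone. By the rule for a called start, however, the first listed Gpi1 start was called only in both PAM3 libraries. That start was uncalled in untreated cells and with 25HC then PAM3, as it was with 25HC alone. Like the region over the start, a region 11.4 to 14.9 kb from the left end was absent from both 25HC libraries. It was also absent from PAM3 mouse A. The window also overlaps those of Pdcd2l and Garre1, so part of its length may belong to them.

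**Figure D4:**
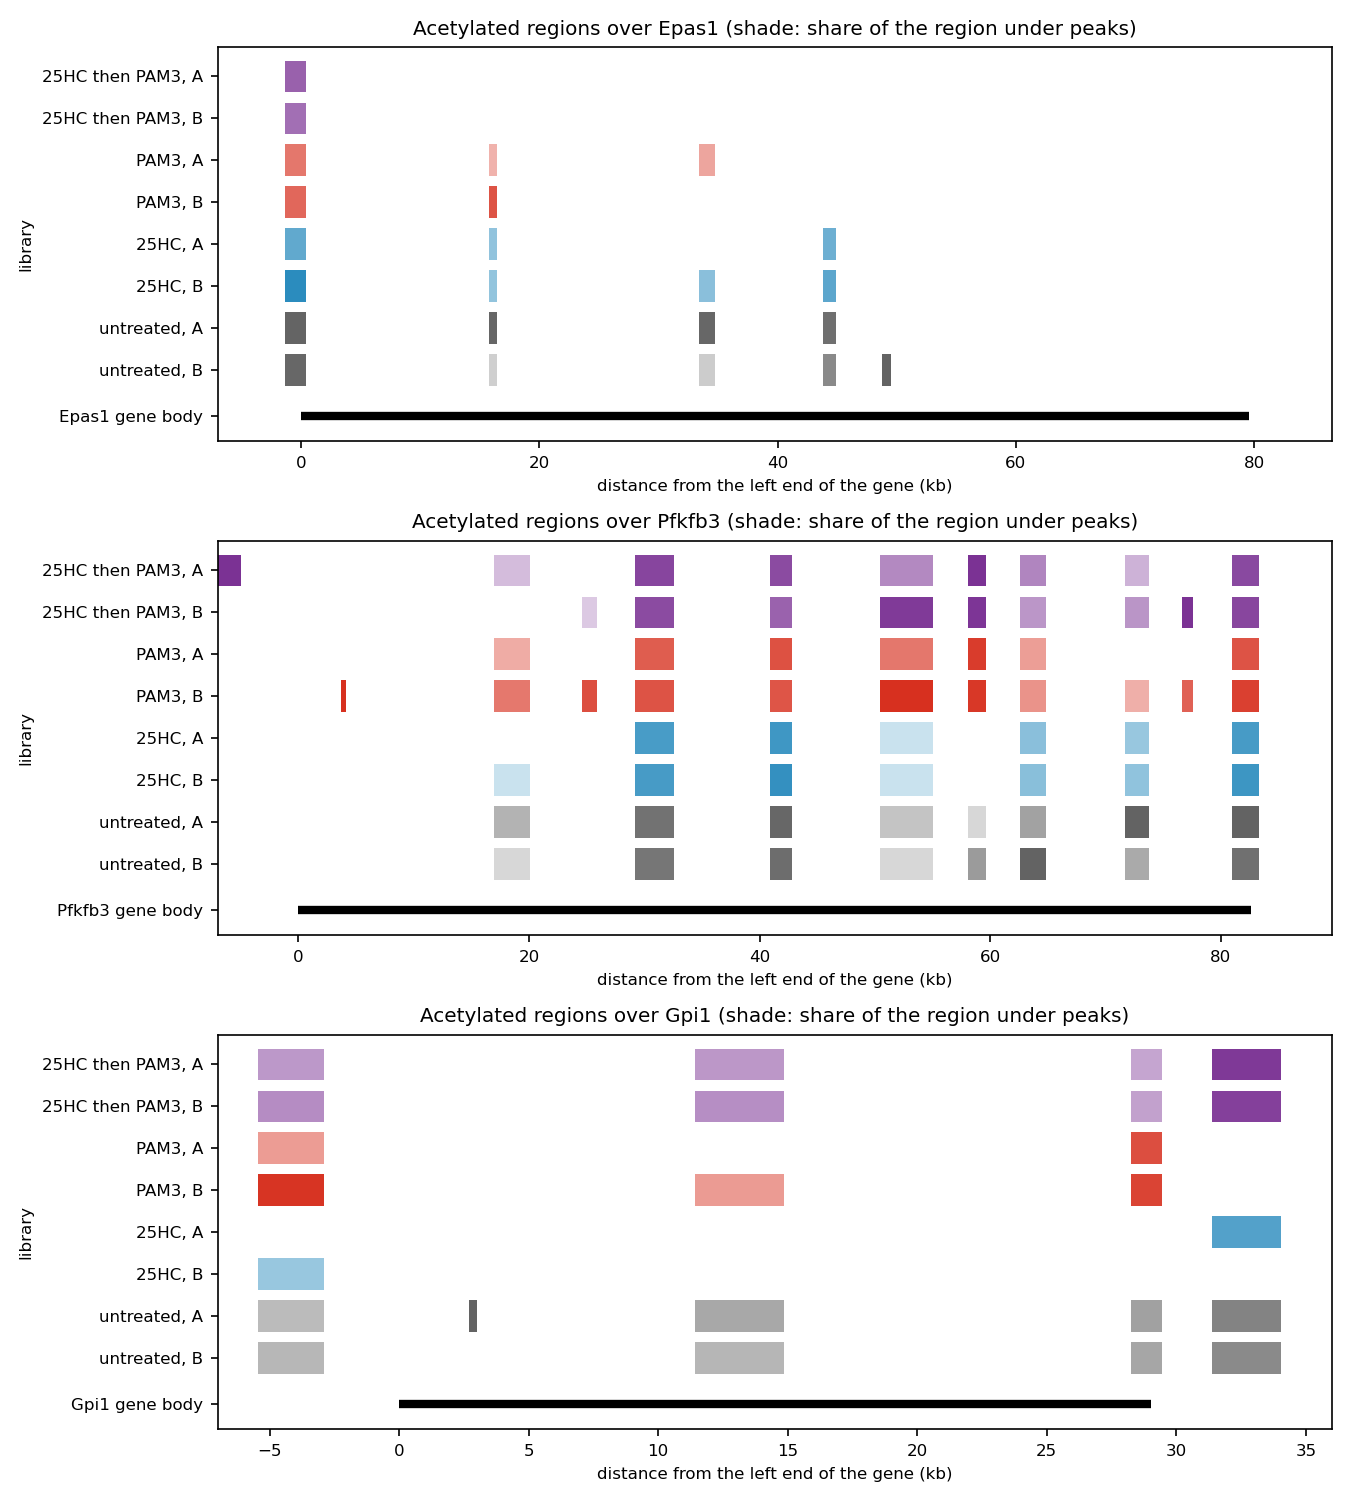
Regions called over Epas1, Pfkfb3 and Gpi1 in each of the 8 libraries (rows, libraries with PAM3 on top), by distance in kb from the left end of each gene, with a darker shade where peaks covered more of the region and the gene body as a black bar. Epas1 lacks the region at 43.8 to 44.9 kb in the 4 libraries with PAM3, Pfkfb3 is more fully covered at 50.4 to 55.0 kb in those libraries, and Gpi1 lacks the regions at 11.4 to 14.9 kb and 28.2 to 29.4 kb in both 25HC libraries.

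The later steps gave no call either. Gapdh, the dehydrogenase at the start of the payoff phase, measured 2729 and 3196 bp with 25HC then PAM3, 2783 and 2725 bp with PAM3, 3038 and 3247 bp with 25HC, and 3076 and 3391 bp in untreated cells, all in 1 region over its start. Both PAM3 libraries were below both untreated ones, by a log2 of −0.15 that did not pass (adjusted p = 0.576). Pgk1, the first kinase to yield ATP, measured 3985 and 5872 bp with 25HC then PAM3, 1960 and 4520 bp with PAM3, 2950 and 3062 bp with 25HC, and 4009 and 4097 bp in untreated cells, and the PAM3 libraries differed more from each other than the group means did. Its interaction of 0.91 did not pass (adjusted p = 0.554). Eno1, the main enolase, had 2094 and 1971 bp with 25HC then PAM3, 1717 and 2786 bp with PAM3, 1618 and 1936 bp with 25HC, and 1761 and 1513 bp in untreated cells (PAM3 against untreated, log2 0.39, adjusted p = 0.251). Pkm, which encodes the pyruvate kinases of most tissues, measured 6181 and 6579 bp with 25HC then PAM3, 3250 and 5593 bp with PAM3, 3605 and 3305 bp with 25HC, and 2529 and 4797 bp in untreated cells. Both 25HC then PAM3 libraries were the longest of the 8, and the PAM3 average of 0.54 did not pass (adjusted p = 0.175), though in windows of 2 kb around the gene ends it was 0.29 and passed (adjusted p = 0.0356). A region 3.5 to 2.4 kb upstream of the Pkm start was called in all 4 libraries with PAM3 (1123 and 921 bp with 25HC then PAM3, 757 and 921 bp with PAM3) and in none without. The Pkm window overlaps those of Parp6 and Gramd2, so part of its length may belong to them. Several genes of this pathway, Gapdh among them, have processed copies elsewhere in the genome, and the sources used here do not say how reads with several placements were treated.

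The remaining enzymes are given by their range. Hk3, Pfkl, Pfkp, Pfkm, Aldoa, Aldoc, Tpi1, Pgam1 and Eno2 had log2 changes of −0.28 to 0.65 in PAM3 against untreated cells and of −0.35 to 0.34 after 25HC. Pfkp, the platelet-type phosphofructokinase, measured 8931 and 8533 bp with 25HC then PAM3, 5347 and 8504 bp with PAM3, 6927 and 9022 bp with 25HC, and 6641 and 5174 bp in untreated cells, and its average difference with 25HC, 0.40, did not pass (adjusted p = 0.362). Tpi1, the triose phosphate isomerase, measured 4953 and 4656 bp with 25HC then PAM3, 4464 and 6015 bp with PAM3, 3917 and 4352 bp with 25HC, and 6698 and 4803 bp in untreated cells. Aldoa, the aldolase of muscle and most other tissues, measured 3664 and 4371 bp with 25HC then PAM3, 3617 and 4273 bp with PAM3, 3708 and 3921 bp with 25HC, and 3654 and 3610 bp in untreated cells. Neither gene separated the libraries with PAM3 from those without. Eno2 measured 4383 and 3756 bp with 25HC then PAM3, 2837 and 3485 bp with PAM3, 2882 and 3197 bp with 25HC, and 3445 and 3214 bp in untreated cells. The difference of 0.31 between 25HC then PAM3 and PAM3 did not pass (adjusted p = 0.318). The window of Hk3, the myeloid hexokinase, held a small region that no library without PAM3 had, 16.0 to 16.6 kb downstream of the start. It measured 244 and 279 bp with 25HC then PAM3 and 547 and 547 bp with PAM3. This region lay outside the gene, at −1.2 to −0.6 kb from its left end, and the window overlaps those of Unc5a and Uimc1.

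Genes that set the pace of glycolysis and the fate of pyruvate held 1 call. Pfkfb3, the kinase that makes fructose 2,6-bisphosphate, lies on chromosome 2, 11471430 to 11554071, with no overlapping window. It measured 14313 and 16069 bp with 25HC then PAM3, 13109 and 19095 bp with PAM3, 9975 and 10384 bp with 25HC, and 14434 and 12516 bp in untreated cells. Both 25HC libraries were the shortest, and mouse A of both groups with PAM3 lay between the untreated libraries. The PAM3 average was 0.40 ± 0.09 (SE; adjusted p = 0.0484). That call ended once the mouse was a block (0.0821), and also in 7 of the 8 fits that left out 1 library, where the adjusted p was 0.0721 to 0.132, and held only without PAM3 mouse A (0.026). The change was −0.03 in windows of 2 kb around the gene ends and −0.32 when peaks below a −log10 q of 5 were dropped. The call also ended with 2000 bp added in place of 500 (adjusted p = 0.0666) and without centring on the library median (0.165). So it did with the same covered length (0.151) and weighting by fold enrichment (0.201). It held with 100 bp added (0.0439), the gene body alone (0.0485), no length filter (0.049) and peaks of at least 500 bp (0.0394). The regions that differed lay inside the gene. One 27.5 to 32.1 kb downstream of the start had 2663 and 4421 bp with 25HC then PAM3, 3020 and 4610 bp with PAM3, 965 and 646 bp with 25HC, and 1714 and 878 bp in untreated cells. A neighbour at 22.9 to 24.4 kb had 1572 and 1547 bp with 25HC then PAM3, 1489 and 1515 bp with PAM3, no peak with 25HC, and 377 and 1008 bp in untreated cells. The start region itself was 1953 to 2346 bp in all 8.

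Ldha, which turns pyruvate into lactate, was the most even of the 34. It measured 4138 and 3954 bp with 25HC then PAM3, 3965 and 4256 bp with PAM3, 4085 and 3832 bp with 25HC, and 3948 and 3902 bp in untreated cells. Its PAM3 response was 0.11 in cells without 25HC. Ldhb, the isoform that favours the reverse reaction, was called near its start in 7 libraries. It measured 1091 and 1151 bp with 25HC then PAM3, 1041 and 1217 bp with PAM3, 1007 and 1380 bp with 25HC, and 0 and 1606 bp in untreated cells. Pdk1 and Pdk3 encode kinases that keep pyruvate out of the mitochondrial cycle. Pdk1 measured 1807 and 2648 bp with 25HC then PAM3, 1703 and 2639 bp with PAM3, 1380 and 0 bp with 25HC, and 2536 and 2293 bp in untreated cells. The log2 change of −1.52 with 25HC against untreated cells rests on the library at 0 and did not pass (adjusted p = 1). Pdk3 was called at its start alone, with 1438 and 1562 bp with 25HC then PAM3, 1228 and 1633 bp with PAM3, 1363 and 1410 bp with 25HC, and 1451 and 1335 bp in untreated cells. Pfkfb4 measured 9345 to 12338 bp.

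**Figure D5:**
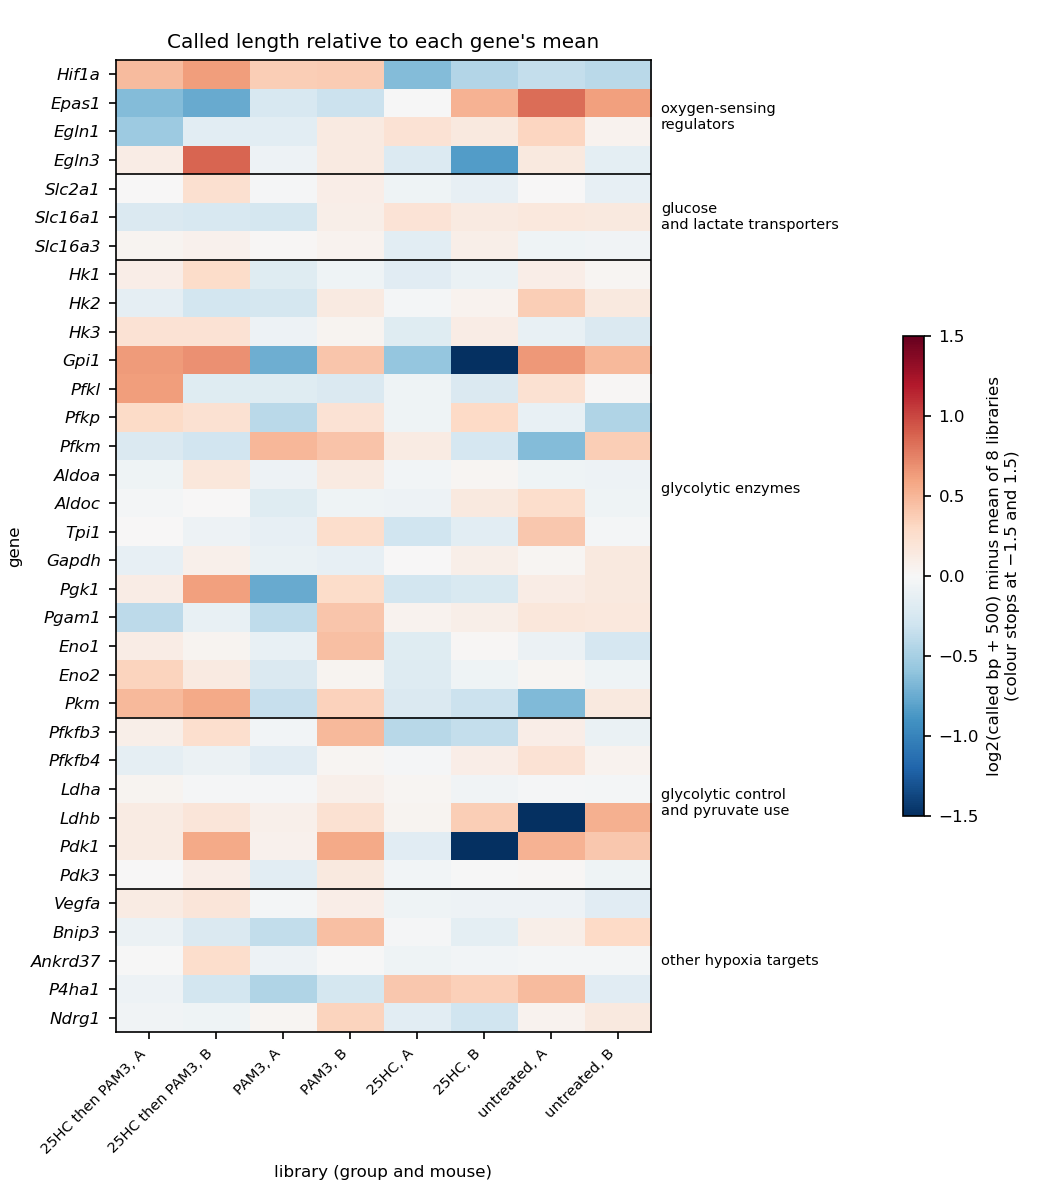
Log2 of called bp plus 500 in each of the 8 libraries (columns, libraries with PAM3 on the left) for the 34 genes (rows, grouped by role), minus each gene's mean over the 8, red for longer and blue for shorter. Hif1a and Epas1 separate the 4 libraries with PAM3 from the 4 without in opposite directions, and the dark blue cells of Ldhb and Pdk1 are libraries at 0 bp.

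Of the other hypoxia targets none was called. Vegfa, the angiogenic growth factor gene, measured 2979 and 3107 bp with 25HC then PAM3, 2628 and 2917 bp with PAM3, 2551 and 2522 bp with 25HC, and 2514 and 2335 bp in untreated cells. Every library with PAM3 was above every library without, by a small margin, and the average log2 change of 0.20 did not pass (adjusted p = 0.121). P4ha1, a collagen prolyl hydroxylase gene, measured 4922 and 4235 bp with 25HC then PAM3, 3690 and 4288 bp with PAM3, 7072 and 6855 bp with 25HC, and 7436 and 4573 bp in untreated cells. A region 48.1 to 49.6 kb downstream of its start had 1463 and 1462 bp with 25HC and 1478 and 1497 bp in untreated cells, and no peak in any library with PAM3. Ndrg1 measured 3441 and 3417 bp with 25HC then PAM3, 3673 and 4640 bp with PAM3, 3157 and 2829 bp with 25HC, and 3721 and 4019 bp in untreated cells. Its average difference with 25HC was −0.25 (adjusted p = 0.317). The mitophagy receptor gene Bnip3 measured 1609 to 3222 bp and Ankrd37 1556 to 2107 bp over the 8 libraries.

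Summed called length can be compared between libraries, which does not show whether the same positions were called. The ratio of the highest to the lowest library had a median of 1.67 over the genes with no library at 0, against 1.80 over all such genes tested. It was under 1.5 for 13 of the 34 genes, where 26.4% of all genes tested were. Ldha had the lowest ratio, 1.11, followed by Aldoa and Slc16a3 at 1.21 and Gapdh at 1.24, and Gpi1 had the highest, 6.96, followed by Egln3 at 4.09 and Epas1 at 3.83. Per kb of window the mean called length was highest at Tpi1 with 367 bp, Aldoa with 244 bp and Slc16a3 with 209 bp, and lowest at Pdk3 with 18.4 bp, Epas1 with 29.6 bp and Ldhb with 38.3 bp. The median was 108 bp per kb over the 34 genes and 83.3 bp per kb over all genes tested. For 21 of the 34 genes, Tpi1, Aldoa and Slc16a3 included, the window also covers part of a neighbour's window.

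By region, overlapping peaks of the 8 libraries joined into 160 regions in the 34 windows, and 63 of them (39.4%) were called in all 8 libraries, a larger share than the 29.8% of all 83297 regions of the genome. Regions called in all 4 libraries with PAM3 and in none without numbered 4 (2.5%, with 1.68% of all regions), 2 at Hif1a and 1 each at Hk3 and Pkm. The reverse pattern gave 2 (1.25%, with 1.63% of all regions), at Epas1 and P4ha1. By 1 kb bins, called where peaks covered at least 50%, PAM3 against untreated cells gained 14 of 233 bins (6.01%, against 5.14% of all called bins) and lost 14 (6.01%, against 6.89%). After 25HC, PAM3 gained 23 (9.87%, against 8.8%) and lost 10 (4.29%, against 6.35%). Over all 4 libraries with PAM3 against all 4 without, 5 bins were gained (2.15%, against 1.79%), at Hif1a, Hk3, Ndrg1, Pfkfb3 and Pkm, and 4 were lost (1.72%, against 2.09%), at Epas1, Hk2 and P4ha1. Of the 233 bins 78 (33.5%) were called in all 8 libraries, against 21.7% of all called bins. No test was made of these differences in share. The regions and bins of the genome include those far from any gene, while those of the 34 genes lie in gene windows. The shares are therefore not of like sets.

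The wider pathway gave a few calls of its own. Of 39 further genes of glucose metabolism 35 were tested, and in the PAM3 average 3 rose and 2 fell. Gpd2, the mitochondrial glycerol 3-phosphate dehydrogenase that feeds electrons from glycolysis into respiration, had 18132 and 11591 bp with 25HC then PAM3, 13876 and 22736 bp with PAM3, 4138 and 3539 bp with 25HC, and 4769 and 4705 bp in untreated cells. All 4 libraries with PAM3 were above all 4 without, by a log2 of 1.81 on average (adjusted p = 0.00748), and it rose in both settings (1.85, adjusted p = 0.032, and 1.77, adjusted p = 0.0299), calls that the mouse as a block ends (0.0686 and 0.0609). Around the gene ends alone its change was −0.02 in each of the 3. Ugp2, which makes UDP-glucose, rose by 0.67 (adjusted p = 0.0319) and Pdhb, a subunit of pyruvate dehydrogenase, by 0.44 (adjusted p = 0.0438). The monocarboxylate carrier gene Slc16a7 had a log2 change of −1.11 (adjusted p = 0.0224) and fell, as did the transketolase gene Tkt, at −0.31 (adjusted p = 0.0454). Tkt also fell after 25HC, with −0.57 (adjusted p = 0.0396). In windows of 2 kb around the gene ends the change of Slc16a7 was −0.02 (adjusted p = 0.704), and that of Pdhb was 0.06 over the gene body alone and 0.03 with length weighted by fold enrichment. With the block, the calls of Ugp2 (0.0625), Pdhb (0.0725) and both of Tkt (0.0791 and 0.0761) ended.

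Of 40 further hypoxia genes 39 were tested, and 3 rose and none fell in the PAM3 average. They were Kdm4c, a histone demethylase gene (log2 1.11, adjusted p = 0.0188), Ddit4, an inhibitor of mTOR signalling (0.39, 0.0206), and Egln2, the third prolyl hydroxylase (0.74, 0.0316). The change of Ddit4 was −0.72 without peaks below a −log10 q of 5 and −0.25 over the gene body alone. In PAM3 against untreated cells Kdm4c (1.39, adjusted p = 0.0475), Egln2 (1.17, 0.0446) and Hif3a (0.73, 0.0474) rose, where 1.89% of all genes tested did. With the block none of the 3 passed (0.0668 to 0.0737). Hif3a had 3086 and 3274 bp with 25HC then PAM3, 4586 and 6261 bp with PAM3, 2793 and 3180 bp with 25HC, and 2857 and 3495 bp in untreated cells. Egln2 had 1997 and 3349 bp with 25HC then PAM3, 5328 and 5360 bp with PAM3, 1835 and 2117 bp with 25HC, and 1989 and 2398 bp in untreated cells, so that its long values were those of PAM3 alone. Its window overlaps those of Cyp2t4 and Rab4b, and the windows of Hif3a, Pdhb and Ugp2 each overlap that of 1 neighbour. No further gene of either list passed in the contrasts of 25HC or in the interaction. The 2 lists were called at 5 of 35 and 3 of 39 genes in the PAM3 average, beside 11.8% of all genes.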

How the data were processed

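Libraries were prepared from acetyl-H4 immunoprecipitates with a KAPA Hyper Prep kit, per the labels' protocols. The submitters' processing notes name GSNAP for alignment, MACS2 2.1.0 for broad peaks and GRCm38 (mm10) as the build, and 1 list was deposited per library. Each list gives peak starts and ends and the authors' values per peak: a score, which equalled 10 times the −log10 q without decimals in 99.994% to 100.0% of peaks, the authors' fold ratio over local background, and the authors' −log10 p and −log10 q. The sources used here do not state controls, read filters or thresholds.

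From the positions, called length was summed over gene bodies with 5 kb on either side (RefSeq table on GRCm38.p6) and tested as log2(bp + 500), library median subtracted, in 1 limma model over the 4 groups (limma 3.58.1, R 4.3.3, trend and robust settings, 4 residual degrees of freedom), with Benjamini-Hochberg adjustment over all 14586 genes tested in each of the 7 contrasts. The scripts were tested on simulated data. The labels give each library a mouse, A or B, in every group, read here as the same animals throughout. Checked over all genes, deviations of same-mouse libraries from their group mean had correlations between −0.0171 and 0.0304. The reported fit has no block for the mouse. Nothing says that the libraries of a group differ in more than the mouse and its culture, so p-values measure the spread between these libraries.

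Values in every library are given for members under adjusted p 0.05 in any contrast, the 3 smallest p per contrast, 10 fixed genes, and the 3 highest and 3 lowest in called length per kb. The members, lists and tests were chosen with earlier results of these data known. In the pathway lists 1 gene is not reported here and is left out of their counts. An Ero1l entry was matched through its synonym. Design choices foresaw the highest fold enrichment per gene, which is left out because the per-peak values did not repeat between libraries.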

Additional observations from a re-analysis of the deposited data

How the results depend on the processing

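Counts and medians were recomputed under 11 alternatives besides the fits without 1 library, 1 of them (only peaks of at least 500 bp) chosen after seeing the data. The settings that use the authors' per-peak values (a −log10 q of at least 5, the same covered length in each library, length weighted by fold enrichment) rest on values that hardly repeat between libraries of a group, and whether that causes the changes was not tested. The 1 gene called in PAM3 against untreated cells became 0 with those 3 settings, with windows of 2 kb around the gene ends, with peaks of at least 500 bp and with the mouse as a replicate block. Windows around the ends leave out the Hif1a start site and the region at 31.8 to 34.4 kb. In 25HC then PAM3 against 25HC the count of 1 (Hif1a) became 3 with the gene body alone (with Epas1 and Gpi1), 2 at the ends (Gpi1 and Pkm) and 0 with q of at least 5 or the same covered length, and with weighting it was 1 for Gpi1 in place of Hif1a (adjusted p = 0.0627). In the PAM3 average the count of 3 became 0, 0 and 1 with q, covered length and weighting, and 2 with the block. The block ended the Pfkfb3 call. At the gene ends none of those 3 genes passed. There Hif1a was at 0.22 (adjusted p = 0.572), Epas1 at −0.25 (0.15) and Pfkfb3 at −0.03 (0.698). Pkm was among the members that passed there, at 0.29 (0.0356), and was not the only one. The block ended no other call among the 34 genes than those given. Leaving out 1 library, the counts ranged from 0 to 1 in the first 2 contrasts and in 25HC against untreated cells (Pdk1 without 25HC mouse A, adjusted p = 0.0471), from 2 to 4 in the PAM3 average, and stayed 0 elsewhere.

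With q of at least 5 the median log2 change was −0.13 for PAM3 against untreated cells, −0.38 for 25HC against untreated cells, 0.33 for the interaction, 0.03 for the PAM3 average and −0.04 for the 25HC average. With the same covered length it was 0.22 after 25HC, 0.16 for 25HC then PAM3 against PAM3, 0.16 for the interaction and 0.04 for the PAM3 average, and with weighting 0.18 for the interaction. Changes of sign at the gene ends were Hif1a −0.72 and Gpd2 −0.02 in PAM3 against untreated cells, Gpd2 −0.02 after 25HC, Egln1 0.06 in 25HC then PAM3 against PAM3, Pfkp −0.02 in the 25HC average, and Egln1 0.21, Gpd2 −0.02, Hk2 0.09, Pfkfb3 −0.03 and Slc2a1 −0.09 in the PAM3 average. With q of at least 5 they were Hif1a −0.71 in PAM3 against untreated cells, Eno2 −0.98 and Hk1 −1.60 in 25HC then PAM3 against PAM3, Hk1 −0.94 in the interaction, and Ddit4 −0.72, Gapdh 0.03, Hk2 0.28 and Pfkfb3 −0.32 in the PAM3 average. With the gene body alone Ddit4 was −0.25. The cause of these changes was not tested. Of 478 alternatives for 44 single-gene values, 356 kept direction and stayed on the same side of the threshold. That count includes values called neither in the main fit nor in the alternative, so it does not show how often calls held. Another 97 kept direction and lost the call, 6 kept direction and gained it, and 19 changed sign, with or without loss of a call.

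Bins gained and lost in PAM3 against untreated cells were 7 and 9 with 90% cover, 4 gained with q of at least 5, and 25 lost with any overlap. After 25HC they were 40 gained and 16 lost with any overlap, 6 lost with 90% cover and 15 gained with q of at least 5. For the PAM3 average they were 3 gained and 1 lost with 90% cover, and 0 gained and 1 lost with q of at least 5.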

Other observations

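The per-peak heights in the deposited lists were compared between the 2 libraries of each group, over peaks that overlapped by at least 50% of the longer. The authors' fold enrichment correlated (Spearman) by 0.169 with 25HC then PAM3, 0.106 with PAM3, 0.21 with 25HC and 0.163 in untreated cells, and the −log10 q by 0.141, 0.087, 0.174 and 0.137. Peak length correlated by 0.914 to 0.921 over the same peaks. Among the peaks nearest the start of each chromosome (10% of its peaks) the fold enrichment correlated by 0.317 to 0.4, and among the last 10% by 0.0428 to 0.154. These are correlations across peaks within pairs of libraries. The peaks of a library are not independent replicates, and the cause was not tested.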
